A study of Homo sapiens with 4 samples.

Results

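Polyamine genes were followed through polysome profiling of MDA-MB-231, an established cell line from a human breast cancer. The 10 genes were taken by symbol as a list of polyamine synthesis enzymes (ODC1, AMD1, SRM and SMS), catabolic enzymes (SAT1, SMOX and PAOX) and the antizyme system (OAZ1, OAZ2 and AZIN1), and all 10 were found among the 28198 genes of the table. Lentivirus-infected cells reconstituted with wild-type METTL3, an mRNA methyltransferase, are called METTL3WT. Cells reconstituted with the acetylation-mimetic K177Q mutant are called METTL3K177Q. Cells depleted of METTL3 were the recipients of both constructs, and both lines grew in DMEM with fetal bovine serum and received cycloheximide, which holds ribosomes on mRNA, before lysis. Gradient fractions were pooled into a sub-polysome fraction (free ribosomal subunits and single ribosomes) and a polysome fraction (several ribosomes per mRNA), and poly(A)-selected RNA of each was sequenced. The 4 libraries analysed here are all replicate 2, with 1 library per condition. The same table has 4 columns whose names read as replicate 1 of each condition, but they belong to no sample in the list used here and were not analysed. For that reason the spread between replicates was not measured here, and no difference between conditions was tested.

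Polyamines (putrescine, spermidine and spermine) are small cations that bind nucleic acids and are needed for cell growth, and their synthesis is often raised in tumours. Ornithine decarboxylase, encoded by ODC1, makes putrescine, and the antizymes OAZ1 and OAZ2 bind this enzyme and send it to the proteasome. The pathway is known for feedback at the level of translation. Antizyme is made only when ribosomes skip a base and so read past an early stop codon, a step that polyamines favour, and a short upstream reading frame in AMD1 mRNA stalls ribosomes when polyamines are high.

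The sequences behind both feedback elements are given first, because they make these mRNAs unlike most others. Capitals mark the early stop codon of the antizyme mRNAs, whose T is the base that is skipped, and the start and stop codons of the AMD1 upstream frame. All are from hg38.
OAZ1 frameshift site: cggtggtgctccTGAtgcccctcacccacc
OAZ2 frameshift site: ctgtggtgctccTGAtgcccctcacccact
AMD1 upstream reading frame: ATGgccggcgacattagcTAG
The OAZ1 site lies in coding exon 2 at chr19:2271431-2271460 on the plus strand, after 68 codons of the first frame. The OAZ2 site lies in exon 2 at chr15:64691498-64691527 on the minus strand, after 32 codons. The windows share 28 of 30 bases. The AMD1 frame, at chr6:110874796-110874816 in exon 1, has 6 codons before its stop and ends 289 bases before the main start codon.

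FPKM summed to between 767949 and 1037594 per library, and between 15773 and 16193 genes per library were above 0. The depth, inferred from the values within chosen limits, was about 25.0 to 26.3 M fragments. FPKM (fragments per kilobase of transcript and per M mapped fragments) is corrected for gene length and depth, so levels of different genes can be set side by side. It is relative to the rest of each library, and in bulk RNA fewer cells of a type and less RNA per cell cannot be told apart. METTL3 itself measured 9.39 FPKM (sub-polysome) and 38.7 FPKM (polysome) in METTL3WT cells, against 5.07 FPKM and 29.5 FPKM in METTL3K177Q cells. The genotypes thus also differed in METTL3 level, and a value per gene cannot separate the construct from remaining endogenous METTL3 mRNA. Whether this level bears on other genes was not tested. The mesenchymal markers of this line, VIM and CD44, had 677 to 1543 FPKM and 110 to 151 FPKM, while the hormone receptor genes ESR1 and PGR were at or near 0 and the epithelial gene CDH1 stayed at or below 0.632 FPKM. Comparisons were restricted to the 10905 genes averaging 1 FPKM or more, among them all 10 polyamine genes.

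OAZ1 dominated the group in every library. Its mean of 1200 FPKM ranked 115 among the 10905 genes, and OAZ1 alone made up 61.6% of the FPKM of the 10 genes in the METTL3WT sub-polysome library and 41.0% in the METTL3WT polysome library, against 61.7% and 37.0% in METTL3K177Q cells. The group as a whole took 0.319% and 0.180% of the METTL3WT sub-polysome and polysome totals. The shares in METTL3K177Q cells were 0.302% and 0.175%. The order of the levels was the same in both sub-polysome libraries, falling from OAZ1 through SAT1, SMS, SRM, OAZ2, ODC1, AZIN1, AMD1 and SMOX to PAOX. It was also the same in both polysome libraries, where SMS stood above SAT1, ODC1 above OAZ2, and PAOX above AZIN1, SMOX and AMD1. Of neighbours in these orders, SMOX and AMD1 in both polysome libraries and PAOX and AZIN1 in the METTL3K177Q polysome library were closer than counting error, and the spread between replicate libraries was not measured here for any pair.

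**Figure D1:**
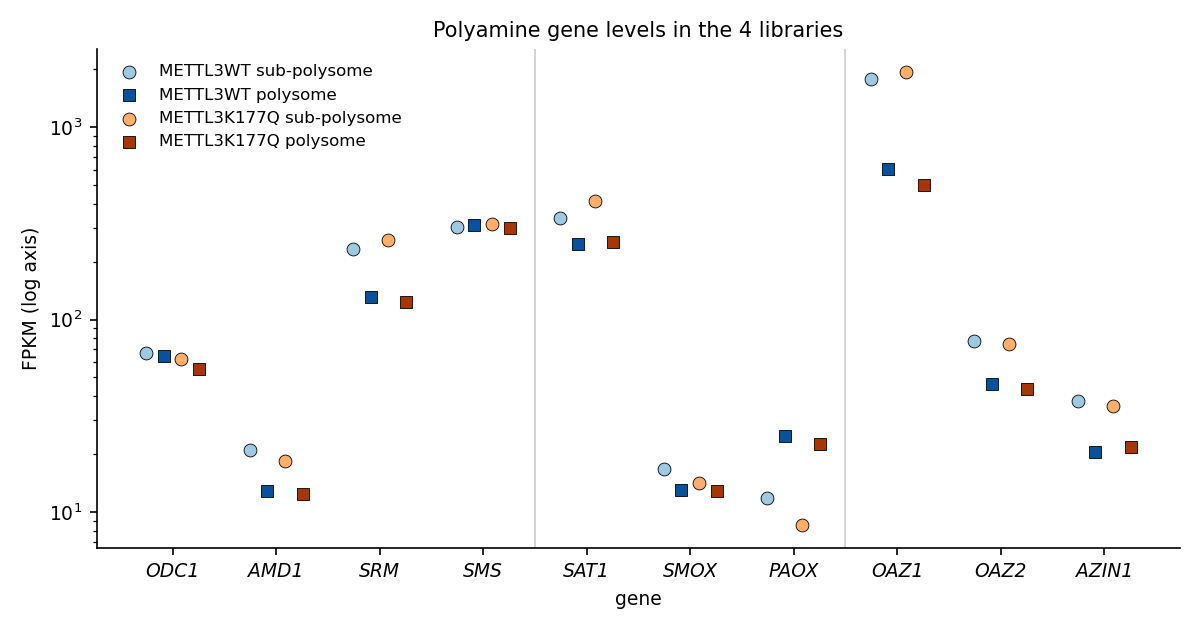
FPKM (log axis) of the 10 polyamine genes in each of the 4 libraries, 1 point per library, with synthesis enzymes at left, catabolic enzymes in the middle and the antizyme system at right. Polysome points (squares) lie below sub-polysome points (circles) for most genes and above them for PAOX.

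Translation efficiency, the polysome FPKM divided by the sub-polysome FPKM, was the first comparison. Values were compared as log2(FPKM + 0.1), and 1.5-fold was the threshold for calling a gene higher or lower. In METTL3WT cells, 5 of the 10 genes (AMD1, SRM, OAZ1, OAZ2 and AZIN1) were at least 1.5-fold lower in the polysome fraction, against 19.1% of all genes compared, and 1 (PAOX) was at least 1.5-fold higher, against 28.1%. In METTL3K177Q cells, 5 genes (SRM, SAT1, OAZ1, OAZ2 and AZIN1) were lower, against 21.3% of all genes, and PAOX alone was higher, against 30.2%. The median log2 difference of the 10 genes was -0.57 in METTL3WT and -0.64 in METTL3K177Q cells, where that of all genes was 0.15 and 0.16. In each genotype 9 of the 10 genes lay below the median of all genes, with PAOX as the exception. Rescaling a library as a whole leaves this position nearly unaffected, whereas the counts depend on it. After rescaling each library to the same total (TPM), 4 genes (SRM, OAZ1, OAZ2 and AZIN1) were lower in METTL3WT cells and 2 (SRM and OAZ1) in METTL3K177Q cells, against 15.7% and 12.6% of all genes. A 2-fold threshold left OAZ1 as the lower gene in METTL3WT cells, against 9.91% of all genes, and SRM and OAZ1 in METTL3K177Q cells, against 12.7%. When totals were equalised without ribosomal protein genes, SRM and OAZ1 were likewise the lower genes in METTL3K177Q cells, against 16.2%.

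The synthesis enzymes differed from one another. ODC1 (chromosome 2, 10439968 to 10448327) measured 67.0 FPKM (sub-polysome) and 64.7 FPKM (polysome) in METTL3WT and 62.1 FPKM and 55.5 FPKM in METTL3K177Q cells. Its 4 values thus lay close together, and the METTL3K177Q polysome value was the lowest. The log2 difference between fractions was -0.05 in METTL3WT cells, with a counting standard error of 0.031, and -0.16 in METTL3K177Q cells, with 0.034.

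AMD1 (chromosome 6, 110874785 to 110895713) encodes S-adenosylmethionine decarboxylase, which supplies the aminopropyl groups of spermidine and spermine. It measured 21.0 FPKM (sub-polysome) and 12.9 FPKM (polysome) in METTL3WT and 18.5 FPKM and 12.4 FPKM in METTL3K177Q cells. Both polysome values were lower than both sub-polysome values. Translation efficiency was 1.62-fold lower than 1 in METTL3WT and 1.49-fold lower in METTL3K177Q cells, on either side of the 1.5-fold threshold. The log2 values of -0.70 and -0.58 had counting standard errors of 0.054 and 0.057, so counting error alone spans the threshold in METTL3K177Q cells.

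SRM and SMS encode the spermidine and spermine synthases, which add 1 aminopropyl group each. SRM (chromosome 1, 11054589 to 11060018) had 232 FPKM and 131 FPKM in the sub-polysome and polysome libraries of METTL3WT cells and 258 FPKM and 124 FPKM in METTL3K177Q cells. Polysome values were 1.78-fold lower in METTL3WT and 2.08-fold lower in METTL3K177Q cells, log2 differences of -0.83 and -1.06. SMS (chromosome X, 21940709 to 21994837) stayed between 300 FPKM and 314 FPKM in all 4 libraries. It was at 302 FPKM (sub-polysome) and 311 FPKM (polysome) in METTL3WT and at 314 FPKM and 300 FPKM in METTL3K177Q cells. SMS was therefore the gene of the group whose levels varied least. The ratio of SMS to SRM inside a library, which no rescaling of libraries can alter, was 1.30 and 1.21 in the sub-polysome libraries of METTL3WT and METTL3K177Q cells and 2.37 and 2.42 in their polysome libraries.

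The catabolic enzymes lay on both sides of the median of all genes. SAT1 (chromosome X, 23783173 to 23786210) encodes the acetyltransferase that marks spermidine and spermine for export or breakdown. It measured 335 FPKM (sub-polysome) and 247 FPKM (polysome) in METTL3WT and 413 FPKM and 253 FPKM in METTL3K177Q cells. The METTL3K177Q sub-polysome value was the highest and the polysome values were nearly equal, so translation efficiency was 1.36-fold below 1 in METTL3WT and 1.63-fold below 1 in METTL3K177Q cells. SMOX (chromosome 20, 4148828 to 4187727) encodes spermine oxidase. It had 16.8 FPKM (sub-polysome) and 13.1 FPKM (polysome) in METTL3WT cells and 14.2 FPKM and 12.9 FPKM in METTL3K177Q cells, with log2 differences of -0.36 and -0.14.

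PAOX (chromosome 10, 133379262 to 133391694) encodes the peroxisomal oxidase of acetylated polyamines and was the gene of the group with the highest translation efficiency. It measured 11.9 FPKM (sub-polysome) and 24.8 FPKM (polysome) in METTL3WT and 8.55 FPKM and 22.4 FPKM in METTL3K177Q cells. Both polysome values exceeded both sub-polysome values, by 2.08-fold in METTL3WT and 2.61-fold in METTL3K177Q cells. These log2 differences of 1.05 and 1.38 placed PAOX at percentiles 88.9 and 94.4 of all genes. With about 391 fragments in the METTL3K177Q sub-polysome library, the lowest number of the group, PAOX had counting standard errors of 0.073 and 0.085. An unnamed gene of the annotation on the same strand shares 1364 of the 1830 exonic bases of PAOX, and reads of the 2 cannot be told apart there.

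The antizyme system was lower in the polysome fraction throughout. OAZ1 (chromosome 19, 2269520 to 2273490) measured 1768 FPKM (sub-polysome) and 604 FPKM (polysome) in METTL3WT and 1932 FPKM and 497 FPKM in METTL3K177Q cells. Polysome values were 2.93-fold lower in METTL3WT and 3.88-fold lower in METTL3K177Q cells, log2 differences of -1.55 and -1.96 with counting standard errors of 0.012 and 0.013. OAZ1 stood at percentiles 4.25 and 4.03 of all genes, the lowest of the group. Unnamed genes of the annotation on the same strand share 220 exonic bases with OAZ1, 159 with AZIN1 and 90 with SAT1.

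OAZ2 (chromosome 15, 64687573 to 64703281) carries nearly the same frameshift site but was far less abundant. It had 77.5 FPKM (sub-polysome) and 46.5 FPKM (polysome) in METTL3WT cells and 74.4 FPKM and 43.7 FPKM in METTL3K177Q cells. The log2 differences, -0.74 and -0.77, were smaller in size than those of OAZ1. The ratio of OAZ1 to OAZ2 inside a library was 22.8 and 26.0 in the sub-polysome libraries of METTL3WT and METTL3K177Q cells and 13.0 and 11.4 in their polysome libraries. AZIN1 (chromosome 8, 102826308 to 102864163) encodes antizyme inhibitor 1, an inactive relative of ornithine decarboxylase that binds antizyme in its place. It had 37.5 FPKM (sub-polysome) and 20.4 FPKM (polysome) in METTL3WT cells and 35.7 FPKM and 21.7 FPKM in METTL3K177Q cells, 1.83-fold and 1.64-fold lower in the polysome fraction.

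The balance of antizyme mRNA to its target differed between the fractions. Summed OAZ1 and OAZ2 FPKM was 27.5 times that of ODC1 in the METTL3WT sub-polysome library and 10.1 times in the METTL3WT polysome library. In METTL3K177Q cells the ratios were 32.3 and 9.75. Antizyme over AZIN1 was 49.2 and 31.8 in METTL3WT cells and 56.2 and 24.9 in METTL3K177Q cells. Both ratios were thus lower in the polysome libraries, and both are free of the scaling of libraries. Both mainly followed OAZ1, which was 11.4 to 26.0 times OAZ2. The log2 difference between fractions of OAZ2 was smaller in size than that of AZIN1 in METTL3WT cells (-0.736 and -0.874). In METTL3K177Q cells it was slightly larger (-0.767 and -0.715). SAT1 over ODC1, a ratio of a catabolic to a synthetic enzyme, was 5.00 and 3.81 in METTL3WT and 6.65 and 4.56 in METTL3K177Q cells.

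Translation efficiency was next compared between METTL3K177Q and METTL3WT cells, as the polysome experiment was designed to do. In the values as given, 0 of the 10 polyamine genes passed 1.5-fold between the genotypes, where 0 were higher, against 4.08% of all genes, and 0 were lower, against 7.03%. The median log2 ratio of translation efficiency, METTL3K177Q over METTL3WT, was -0.07 for the 10 genes and -0.01 for all genes, and the values ran from -0.41 to 0.33. The SD across all genes was 0.455. Both counts are near the background shares.

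OAZ1 had the lowest ratio, a log2 value of -0.41 or 1.33-fold lower translation efficiency in METTL3K177Q cells, with a 95% counting interval from -0.44 to -0.37. It stood at percentile 13.9 of all genes. SAT1 (-0.27), SRM (-0.23), ODC1 (-0.11) and SMS (-0.11) were also below 0 by more than counting error. OAZ2 was at -0.03, with an interval from -0.14 to 0.08. PAOX had the highest ratio, 0.33 or 1.26-fold, with an interval from 0.11 to 0.55, and stood at percentile 84.5. SMOX (0.22) and AZIN1 (0.16) were above 0 by more than counting error, while AMD1 (0.12) had an interval from -0.03 to 0.27. These intervals leave out the variation between libraries, which was not measured here. With TPM, which moved the median of all genes from -0.01 to 0.29, 9 of the 10 genes were above 0 and OAZ1 alone stayed below, at -0.11. PAOX, at 0.63, then passed 1.5-fold, against 18.6% of all genes higher. Relative to the median of all genes, 6 of the 10 (OAZ1, SAT1, SRM, ODC1, SMS and OAZ2) lay below in the values as given, and 6 did with TPM. With a minimum mean of 10 FPKM, 5 did.

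Each fraction was then compared between the genotypes. In the polysome fraction 0 of the 10 genes differed by 1.5-fold, against 5.25% of all genes, and in the sub-polysome fraction 0 did, against 6.95%. Between the polysome libraries, log2 differences ran from -0.28 for OAZ1 and -0.22 for ODC1 to 0.09 for AZIN1. Between the sub-polysome libraries they ran from -0.47 for PAOX, 1.39-fold lower in METTL3K177Q cells with a counting standard error of 0.095, to 0.30 for SAT1. PAOX was also lower in METTL3K177Q cells between the polysome libraries, by a log2 difference of -0.145. Its higher ratio thus came from the larger difference between the sub-polysome libraries. The ratio of OAZ1 had a part from each fraction, -0.28 in the polysome and 0.13 in the sub-polysome libraries. With TPM the PAOX difference between the sub-polysome libraries passed 1.5-fold, lower in METTL3K177Q cells, against 11.7% of all genes, and it did so against 11.1% when totals were equalised without ribosomal protein genes.

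Coding-sequence length was examined because a longer coding sequence can hold more ribosomes. In METTL3WT cells the median log2 translation efficiency rose from -0.44 in the shortest of 10 equal groups of mRNAs (75 to 507 bases) to 0.39 in the longest. In METTL3K177Q cells it rose from -0.68 to 0.64. The log2 ratio between the genotypes accordingly had a median of -0.30 in the shortest and 0.25 in the longest group. The polyamine genes had coding lengths from 513 bases (SAT1) to 1665 bases (SMOX), against a median of 1317 bases. Among mRNAs of 507 to 708 bases, OAZ1 (684 bases, counted through the frameshift) stood at percentile 3.21 of translation efficiency in METTL3WT and 3.01 in METTL3K177Q cells. OAZ2 (567 bases, counted in the same way) stood at percentiles 17.9 and 24.3 of that group. Ribosomes that do not shift read 68 codons of OAZ1 and 32 of OAZ2 only. Positions among mRNAs of those lengths were not tested. The ratio of OAZ1 between the genotypes stood at percentile 22.0 of the group of 507 to 708 bases, where the median was -0.19. The ratio of OAZ2 stood at percentile 69.4. AZIN1 (1344 bases) was at percentiles 5.34 and 8.07 of its length group, and AMD1 (1002 bases) and SRM (906 bases) were at 11.2 and 11.1 in METTL3WT cells. PAOX (1533 bases) was at 86.7 and 94.1.

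Upstream start codons were counted in the canonical transcripts, as ATG on the sense strand in any frame before the main start codon. Of the 10 genes, 6 had at least 1, and 5 (ODC1, AMD1, SAT1, OAZ2 and AZIN1) had an upstream frame that also stops before the main start codon. Among the 10292 genes with a coding transcript these shares were 37.6% and 31.5%. The 5 genes with such a frame had a median log2 translation efficiency of -0.70 in METTL3WT and -0.71 in METTL3K177Q cells, and the other 5 had -0.36 and -0.14. Over all genes the medians were -0.03 and 0.03 with such a frame and 0.29 and 0.29 without. With 5 genes on each side these are descriptions only, and OAZ1, the gene with the lowest translation efficiency, had 0 upstream start codons in its 79 bases of 5' leader.

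The 40 other genes of the pathway comprised further antizyme and catabolic genes, ornithine and arginine supply, the methionine cycle with methylthioadenosine salvage, hypusination and transport. All 40 were in the table and 31 passed the minimum of 1 FPKM. Of these, 0 were at least 1.5-fold higher in translation efficiency in METTL3K177Q cells and 1 was lower, against 4.08% and 7.03% of all genes. Their median log2 ratio was -0.004, with 15 above and 16 below 0. The 1 lower gene was SLC22A3, an organic cation transporter, with 0.922 FPKM (sub-polysome) and 1.04 FPKM (polysome) in METTL3WT and 1.23 FPKM and 0.849 FPKM in METTL3K177Q cells, values close to the minimum. In translation efficiency itself, 10 of the 31 were at least 1.5-fold higher in the polysome fraction of METTL3WT cells, against 28.1% of all genes, and 1 was lower, against 19.1%. Their count of higher genes was near that background. Their median log2 difference was 0.29, where that of all genes was 0.15.

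Among the genes that lead into or out of polyamine synthesis, EIF5A was the most abundant. It encodes the elongation factor whose hypusine is made from spermidine, and it measured 1284 FPKM (sub-polysome) and 1442 FPKM (polysome) in METTL3WT and 1466 FPKM and 1528 FPKM in METTL3K177Q cells. Its 4 values varied little, unlike those of OAZ1 at a like level. DHPS and DOHH, which make the hypusine, had log2 ratios of translation efficiency of -0.29 and -0.44. EIF5A itself had -0.11, while EIF5A2, also listed under hypusination, went the other way at 0.26. MAT2A, which makes S-adenosylmethionine, had 19.3 FPKM (sub-polysome) and 23.7 FPKM (polysome) in METTL3WT and 15.6 FPKM and 22.4 FPKM in METTL3K177Q cells, a log2 ratio of 0.22. ATP13A3, a polyamine transporter gene, measured 8.59 FPKM and 6.53 FPKM in METTL3WT and 7.88 FPKM and 6.81 FPKM in METTL3K177Q cells, a log2 ratio of 0.18.

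The close relatives of the 10 genes were less abundant than OAZ1 and SAT1. AZIN2, a second antizyme inhibitor, had between 11.8 FPKM and 14.2 FPKM and a log2 ratio of -0.25. OAZ3, known as the testis antizyme, had a mean of 0.674 FPKM and was not compared. SAT2, a relative of SAT1, had 102 FPKM (sub-polysome) and 70.0 FPKM (polysome) in METTL3WT and 124 FPKM and 60.6 FPKM in METTL3K177Q cells, a log2 ratio of -0.48. SATL1, ARG1, ATP13A5 and MTAP were listed at 0 in all 4 libraries. MTAP encodes the phosphorylase that recycles methylthioadenosine, the by-product of both SRM and SMS, and the downstream salvage genes MRI1, APIP, ENOPH1 and ADI1 all passed the minimum.

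The genes with the most similar pattern were found by the distance between log2 values over the 4 libraries, each gene centred on its own mean, among 5378 genes averaging 10 FPKM or more. For OAZ1 these were TOMM6 (distance 0.0406), MZT2B (0.0418) and DNAJC19 (0.0683). TOMM6 had 1539 FPKM (sub-polysome) and 532 FPKM (polysome) in METTL3WT and 1644 FPKM and 438 FPKM in METTL3K177Q cells, a pattern close to that of OAZ1. For AMD1 they were PABPC4 (0.0422), EXD3 (0.0557) and NCBP2 (0.0582). For ODC1 they were PDLIM2 (0.0334), ARRDC2 (0.0356) and PPIL1 (0.0454). With 4 libraries, a short distance is a description of these values and no more.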

How the data were processed

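Polysome profiling libraries were poly(A)-selected and directional. The authors deposited 1 FPKM value per gene and library, in a table with 4 further value columns. Their names read as replicate 1 of each condition, but the sample list used here holds replicate 2 only, so they were not analysed here. The submitters' processing notes name STAR 2.7, StringTie 2.1.5 and hg38, while the annotation and strand setting are not given in the sources used here. Each column was assigned to its sample by genotype, fraction and replicate number in its name.

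Translation efficiency was the log2 difference of polysome and sub-polysome values with 0.1 added to each FPKM, computed for all 10905 genes averaging 1 FPKM or more. A fold of 1.5 counted as changed. No p-value was computed, because 1 library per condition was analysed, and the missing replicate error follows from this choice. The genotype ratio of translation efficiency was tested on simulated data with counting error only and planted changes larger than those of the 10 genes. Smaller differences and variation between libraries were not simulated. Transcript positions, coding lengths and upstream ATG counts were read from each canonical GENCODE 44 transcript (hg38), found for all 10 genes by symbol. Sites were read from the hg38 genome. Frameshift gaps of 1 base in the annotation were closed.

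The table gives no counts. FPKM times transcript length, over 6340 genes with 1 annotated transcript, clusters at low values, and the median between 0.03 and 0.048 was taken as 1 fragment, limits chosen after the values were seen. These limits also bound the inferred depth, so its similarity across libraries depends in part on them. Counting standard errors and intervals rest on this approximation. They cover counting error only. By symbol, GENCODE holds 9 copies of AMD1, SRM, SMS and OAZ1, of which 0 are in the table, so reads shared with them cannot be separated.

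The genes named are the 10 polyamine genes and METTL3. Of 40 other pathway genes, those named are the ones changed 1.5-fold in translation efficiency between the genotypes or listed at 0 throughout. EIF5A, MAT2A, AZIN2, OAZ3, SAT2 and ATP13A3 were named in any case. DHPS, DOHH, EIF5A2, the salvage genes and the cell line markers were named after values were seen. For ODC1, AMD1 and OAZ1, the 3 genes closest in pattern were named. Members and lists were chosen with earlier results of these data known. Alternatives were pseudocounts of 0.01 and 1, no filter or a minimum mean of 10 FPKM, TPM, median-of-ratios size factors, equal totals without ribosomal protein genes and a 2-fold threshold. Calculations used pandas 2.3.3 and numpy 2.4.6 in Python 3.11.15, and plots matplotlib 3.10.9.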

Additional observations from a re-analysis of the deposited data

Results flagged for a closer look

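For 4 polyamine genes, a difference had opposite signs in the 2 genotypes or the 2 fractions. With 1 library per condition analysed here, none of these differences was tested, and the signs depend on the scaling of the libraries.

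The difference between METTL3K177Q and METTL3WT had opposite signs in the polysome and the sub-polysome libraries for OAZ1 (log2 differences of -0.281 and 0.128), SRM (-0.078 and 0.153), SMS (-0.051 and 0.056) and AZIN1 (0.087 and -0.072). The signs for AZIN1, whose product binds antizyme, were the reverse of those for OAZ1. SMS also had polysome minus sub-polysome differences of opposite sign, 0.042 in METTL3WT and -0.066 in METTL3K177Q cells, in each genotype the smallest of the 10 genes in size.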

How the results depend on the processing

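No paired analysis was possible because the sample list used here gives each condition 1 library, replicate 2, and the columns named as replicate 1 were not analysed. No replicate could be left out for the same reason. Pseudocounts, filters and size factors left every count of polyamine genes within 1.5 times and the median log2 ratio of translation efficiency within 0.1. A rescaling of whole libraries adds nearly the same amount to every gene. TPM gave a median of 0.23 for the 10 genes (0.29 for all genes), with 1 gene higher in translation efficiency (PAOX, against 18.6% of all genes), 2 genes (SRM and OAZ1) lower in the polysome than the sub-polysome fraction of METTL3K177Q cells, and 1 gene, again PAOX, changed between the sub-polysome libraries. Equal totals without ribosomal protein genes gave a median of 0.17 (0.23 for all genes), with 2 and 1 in the latter 2 comparisons. Relative to all genes, the median was -0.06 as given and with both rescalings, but 0.015 with a minimum mean of 10 FPKM, where its sign turned. The 2-fold threshold left 1 gene lower in the polysome fraction of METTL3WT cells (OAZ1) and 2 in that of METTL3K177Q cells (SRM and OAZ1). Of 70 values of single genes under alternatives, 20 moved beyond counting error, all 20 under these 2 rescalings, and 9 changed sign. Depth limits SMOX and PAOX most, with counting standard errors of 0.103 and 0.113 for the log2 ratio.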
